A study of Mus musculus with 15 samples.

Results

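The genes described are 10 genes of meiosis and of the piRNA pathway, namely Sycp1, Sycp3, Piwil1, Piwil2, Tdrd1, Mov10l1, Mael, Asz1, Stk31 and Ddx4, chosen by name, with every CpG listed in the deposited files inside their RefSeq span or within 2 kb of it. They held 18 of the 204492 listed CpGs, spread over 5 of the 10 genes. The libraries were reduced representation bisulfite libraries, in which DNA is cut at CCGG by the enzyme MspI and unconverted cytosines are read as methylated, of sperm from male C57BL/6 mice of generation G1. There were 8 libraries labelled PR, for protein restricted, and 7 labelled Control. The labels do not say whether the sampled mice or a parent ate the diet, nor their age, nor which libraries share a litter, and the p-values refer only to how far these libraries scatter.

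During meiotic prophase homologous chromosomes are joined along their length by the synaptonemal complex, a protein zipper built by germ cells. The piRNA pathway loads small RNAs onto PIWI proteins, cuts transposon transcripts and guides the methylation of transposon DNA in fetal male germ cells. Many genes of both systems have CpG-rich promoters that are methylated in somatic tissues and open in germ cells, and the repressor E2F6, which binds TCCCGC, takes part in silencing a subset of them in somatic cells.

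Promoter sequences of 4 members are shown because they carry the TCCCGC element, and that of Sycp1 also because the only CpG measured upstream of a member lies close to it. They are credited to RefSeq (GRCm38.p6, the build of mm10) and read 5′ to 3′ on the strand of the gene, from 250 bases before to 50 bases after the start. Capitals mark CCGG, the MspI site, and TCCCGC or its reverse complement GCGGGA.
Sycp1 (chr3:102936051-102936350, minus strand): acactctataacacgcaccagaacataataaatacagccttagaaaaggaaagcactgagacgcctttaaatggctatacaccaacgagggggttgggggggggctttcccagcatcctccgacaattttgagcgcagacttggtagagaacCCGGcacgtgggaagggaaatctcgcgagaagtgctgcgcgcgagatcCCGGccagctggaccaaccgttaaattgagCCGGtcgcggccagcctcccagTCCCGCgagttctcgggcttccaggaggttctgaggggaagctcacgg
Sycp3 (chr10:88459337-88459636, plus strand): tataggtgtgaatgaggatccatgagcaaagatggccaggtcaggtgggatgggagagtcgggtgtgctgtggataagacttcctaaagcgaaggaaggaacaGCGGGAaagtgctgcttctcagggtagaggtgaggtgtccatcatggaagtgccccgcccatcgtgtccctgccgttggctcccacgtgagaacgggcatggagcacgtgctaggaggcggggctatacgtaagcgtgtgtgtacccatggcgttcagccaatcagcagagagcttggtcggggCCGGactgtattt
Mael (chr1:166238695-166238994, minus strand): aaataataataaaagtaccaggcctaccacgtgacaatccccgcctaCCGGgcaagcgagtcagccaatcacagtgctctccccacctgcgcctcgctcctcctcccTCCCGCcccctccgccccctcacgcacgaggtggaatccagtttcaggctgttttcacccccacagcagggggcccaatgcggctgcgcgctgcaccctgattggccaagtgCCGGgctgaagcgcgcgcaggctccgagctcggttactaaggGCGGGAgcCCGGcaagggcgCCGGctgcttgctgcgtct
Ddx4 (chr13:112652261-112652560, minus strand): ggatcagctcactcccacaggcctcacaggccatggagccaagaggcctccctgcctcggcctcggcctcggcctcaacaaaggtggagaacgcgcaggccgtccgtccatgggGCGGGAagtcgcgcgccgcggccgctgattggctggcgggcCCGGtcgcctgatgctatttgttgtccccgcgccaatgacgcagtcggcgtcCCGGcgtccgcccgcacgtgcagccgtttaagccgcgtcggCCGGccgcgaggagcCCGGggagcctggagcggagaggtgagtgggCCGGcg

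Of the 10 members 9 matched a promoter window in the RefSeq table. These 9 windows held 15 to 38 CpGs each, against a median of 7 over all 32851 windows, and CCGG was present in 7 of the 9, against 52.8% of all windows. Piwil1 and Mov10l1 had no CCGG in the window, and Ddx4 had 5. TCCCGC, searched on both strands, was present in 4 of the 9 and in 20.0% of all windows. Both motifs contain a CpG, so windows poor in CpGs are an unlike comparison. Of the 15982 windows with at least 8 CpGs, 13583 had CCGG, and the share with TCCCGC is not given here. CAACNG, an element of MYB factors, was present on either strand in Sycp1, Sycp3 and Piwil1, 3 of the 9, and in 35.02% of all windows. No listed CpG fell in any of the 9 windows, and 0.980% of all windows held one. The share was 1.46% of windows with CCGG and 0.626% of those with CCGG and at least 8 CpGs. No library has fewer than 11 methylated reads at any listed CpG. A window without a listed CpG may therefore be unmethylated, methylated in part or at low coverage, or not covered, and these cannot be told apart.

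Counts summed over all listed CpGs ran from 6650912 to 10712016 in PR libraries and from 7846118 to 11841657 in Control libraries, with a median coverage of 26 to 42 reads per CpG. Reads carried no molecular identifiers, so the intervals of single libraries cover counting error only. At imprints methylated on the paternal copy, 7 CpGs upstream of Meg3 and Rasgrf1 averaged between 87.0% and 100% per gene and library. The region upstream of Zdbf2, the other matched imprint of this kind, held no listed CpG, and H19 was not matched. These levels cannot check the sperm label, because the median over all listed CpGs was 98.2%. Of 13 promoters of genes with a maternally methylated imprint 0 held one, which with so few promoter windows listed in the whole series (0.980%) does not bear on the label. These were matched by gene name, and the promoter need not be the imprint itself.

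Among the synaptonemal complex genes, Sycp1 had 1 listed CpG and Sycp3 had none. Sycp1 encodes the transverse filaments that join paired chromosomes, and Sycp3 a protein of the chromosome axes. The Sycp1 CpG (mm10 chromosome 3, 102936787) lies outside the gene and outside any other RefSeq gene span, 687 bp upstream of the 5′ end and 437 bp beyond the promoter window printed above. It was partly methylated, with a lowest value of 22.7%, a median of 35.6% and a highest value of 38.8% in PR libraries, against 27.0%, 33.3% and 38.7% in Control libraries. The groups overlapped over most of their range, although 3 PR libraries lay below every Control library and 1 lay above every Control library.

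Its mean was 32.5% ± 6.82 (SD, n = 8) in PR sperm and 33.4% ± 3.95 (SD, n = 7) in Control sperm. PR minus Control came to -0.888 points, less than either SD (95% interval -7.32 to 5.61, p = 0.758 by a two-sided exact permutation test). Without PR replicate 8 it was 0.520 points and without PR replicate 4 0.289 points. Over the 15 libraries 635 of 943 reads were unmethylated at this CpG. The lowest library, PR replicate 8, had 17 methylated reads of 75 (95% Wilson interval 14.7% to 33.3%), and the highest, PR replicate 6, had 19 of 49 (26.4% to 52.8%). The lowest count of methylated reads at any listed CpG was 11, and the listing rule is not known. If 11 were the limit, the lowest percentage listed here could be between 10.2% and 25%, depending on the library's coverage.

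**Figure D1:**
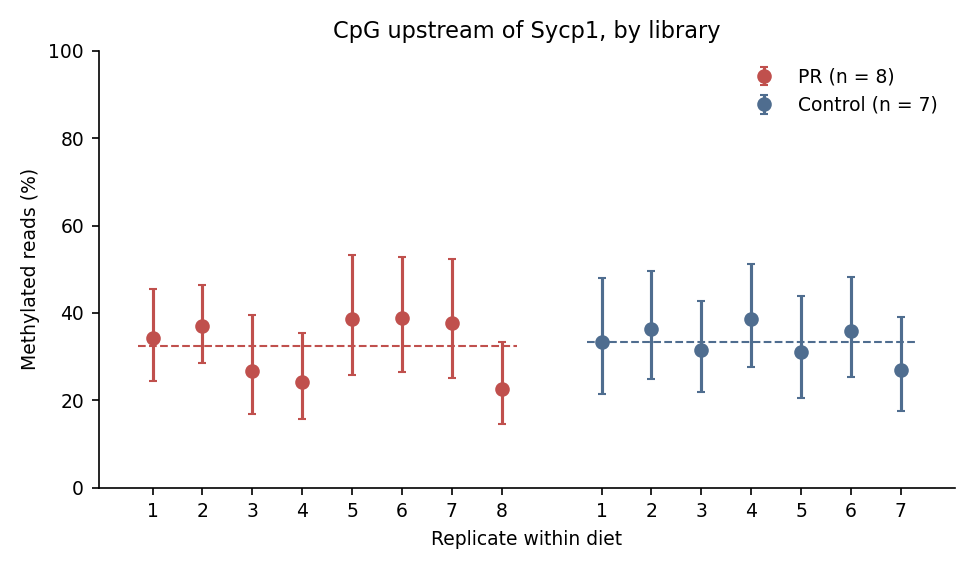
Percentage of methylated reads at the CpG 687 bp upstream of Sycp1 in each library, PR at the left and Control at the right. Bars are 95% Wilson intervals and dashed lines are means (32.5% in PR and 33.4% in Control); the points of both diets lie between 22.7% and 38.8%.

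The spread at the Sycp1 CpG was about that of read counting. The within-diet SD was 5.68 points, against 6.09 points for binomial counting at its coverage (mean 62.9 reads, range 44 to 108), and the dispersion was 0.943, where counting alone gives 1. Of 622 listed CpGs with a mean between 22.9% and 42.9% and a mean coverage between 31.4 and 94.3 reads, the median within-diet SD was 6.80 points and the median dispersion 1.18. An SD below that of Sycp1 was seen at 22.99% of these CpGs.

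The level itself was low for its place. The nearest listed CpG on the upstream side, 16013 bp away, averaged 97.7%, and the nearest on the side of the gene, 146425 bp away and past its 3′ end, 97.6%. Of 1029 listed CpGs lying 500 to 1000 bp upstream of the nearest 5′ end, the median was 97.48%, 18 were under 50%, and none was below the Sycp1 CpG, whose mean over all libraries was 32.9%, with the next lowest at 33.0%. Nearer the start, from 250 bp before to 50 bp after the nearest 5′ end, 3 of 592 listed CpGs were below the Sycp1 CpG. Over all listed CpGs the median was 98.2% and 0.232% were below it. These ranks describe the listed CpGs only, since unmethylated CpGs at ordinary depth are not listed.

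**Figure D2:**
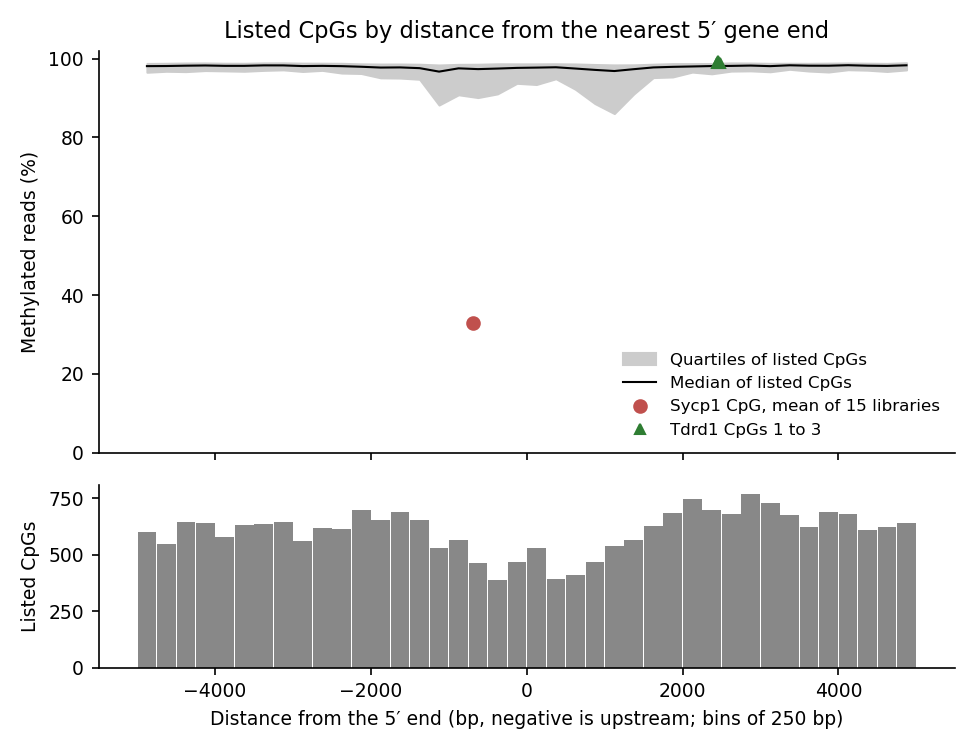
Upper panel, percentage of methylated reads against distance from the nearest 5′ gene end, as median and quartiles of listed CpGs in bins of 250 bp, with the Sycp1 CpG (32.9%) and the first 3 CpGs of Tdrd1 (98.8% to 99.5%). Lower panel, number of listed CpGs per bin. The Sycp1 CpG lies far under the quartiles of its bin.

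The genes whose ends lay nearest to those of Sycp1 over the 15 libraries, by root mean square difference among 5148 gene ends with at least 20 reads in every library, were the noncoding RNA gene Gm12273 (6.45 points), the pseudogene Gm13146 (6.76 points) and Fbp1, which encodes a gluconeogenic phosphatase (6.92 points). These distances are about the counting SD of the Sycp1 CpG, 6.09 points, so they pick out ends of a similar level. Their order cannot show a pattern shared between libraries. Fbp1 ends, with 1 CpG, were at 35.5% ± 3.001 (SD, n = 8) in PR and 35.2% ± 2.64 (SD, n = 7) in Control sperm.

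The PIWI genes Piwil1 and Piwil2 were almost fully methylated at their listed CpGs. Piwil1 (MIWI) binds piRNAs of meiotic and haploid male germ cells, and Piwil2 (MILI) acts already in fetal germ cells. The 2 CpGs of Piwil1 (chromosome 5, 128754921 and 128755075) lie within the gene, 553 and 399 bp before its 3′ end. Summed over both, PR libraries had a lowest value of 96.3%, a median of 98.4% and a highest value of 100%, against 96.5%, 98.3% and 100% in Control libraries. The diets covered almost the same range, and the difference was 0.0570 points (exact permutation p = 0.923, 95% interval -1.43 to 1.53), with a sign that turned when any of 5 libraries was left out. The first CpG averaged 99.3% ± 1.32 in PR and 98.1% ± 2.67 in Control sperm, and the second 97.5% ± 2.98 in PR and 98.6% ± 1.77 in Control sperm, so that they differed in opposite directions, each by less than either SD.

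Piwil2 had 4 CpGs in the gene body (chromosome 14, 70421458 to 70423173). Their summed level had a lowest value of 95.3%, a median of 97.8% and a highest value of 100% in PR libraries, against 96.1%, 97.54% and 98.9% in Control libraries. The PR range enclosed the Control range, and the difference was 0.480 points (exact permutation p = 0.540, 95% interval -1.19 to 2.14). It was 0.169 points without PR replicate 2 or without PR replicate 8, and ran up to 0.838 points, without PR replicate 1. The lowest of these CpGs, at 70423173, averaged 96.3% ± 4.06 (SD, n = 8) in PR and 94.7% ± 4.45 (SD, n = 7) in Control sperm. The CpG at 70423023 had the smallest p of the gene and averaged 99.6% ± 1.18 in PR and 97.8% ± 2.86 in Control sperm, with 7 of 8 PR libraries and 4 of 7 Control libraries at 100%. The CpG at 70422954 averaged 97.0% ± 3.81 in PR and 97.9% ± 4.09 in Control sperm, and that at 70421458, 1496 bp away, 98.4% ± 1.70 in PR and 98.8% ± 2.05 in Control sperm.

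The Tudor domain genes were Tdrd1 and Stk31, and Stk31, which encodes a Tudor domain protein with a kinase-like domain, had no listed CpG. Tdrd1, a scaffold that binds methylated arginines of MILI in the germ granules of male germ cells, had the most listed CpGs of the members, 7, all in the gene body (chromosome 19, 56828614 to 56863491). The first 3 lie 2443 to 2481 bp downstream of the 5′ end. Summed over the 7 CpGs, PR libraries had a lowest value of 97.1%, a median of 98.8% and a highest value of 99.5%, against 98.1%, 98.7% and 99.6% in Control libraries. The PR range reached lower and the ranges otherwise overlapped, and the difference was -0.240 points (exact permutation p = 0.515, 95% interval -1.004 to 0.496). It was -0.0286 points without PR replicate 3, between -0.367 and -0.120 without any other library, and 0.0137 points with equal weight per CpG. The lowest CpG, at 56850581, averaged 98.1% ± 2.70 (SD, n = 8) in PR and 96.7% ± 3.29 (SD, n = 7) in Control sperm. That with the smallest p, at 56863413, averaged 98.2% ± 2.005 in PR and 99.2% ± 1.14 in Control sperm, at a mean coverage of 55.4 reads. The highest CpG, at 56828626, averaged 99.5% ± 1.36 (SD, n = 8) in PR and 99.5% ± 1.45 (SD, n = 7) in Control sperm.

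The helicase genes were Mov10l1, which encodes the RNA helicase that feeds piRNA precursors into processing, and Ddx4, the mouse vasa homologue and a widely used germ cell marker, which had no listed CpG. Mov10l1 had 4 CpGs in the gene body (chromosome 15, 89005234 to 89041473). Their summed level had a lowest value of 96.2%, a median of 97.3% and a highest value of 99.2% in PR libraries, against 96.2%, 97.8% and 100% in Control libraries. The ranges overlapped over most of their length, and the difference was -0.552 points (exact permutation p = 0.342, 95% interval -1.77 to 0.667). Leaving out a single library moved it to between -0.844 points (Control replicate 6 left out) and -0.218 points (Control replicate 5 left out). The CpG at 89041344 was at 100% in all 8 PR libraries, against 95.7% to 100% in Control libraries, of which 4 of 7 were at 100%. It had the smallest unadjusted p of the 18 CpGs in the quasi-binomial model, 0.0617, with a mean coverage of 26.8 reads. The Control libraries under 100% were replicates 1, 6 and 7, with 22 of 23, 41 of 42 and 30 of 31 reads methylated. The other CpGs were lower in PR sperm by less than the PR SD. That at 89005234, 22343 bp into the gene, averaged 97.8% ± 4.81 in PR and 99.0% ± 2.52 in Control sperm, that at 89040760 96.3% ± 3.09 in PR and 97.1% ± 1.81 in Control sperm, and that at 89041473 96.9% ± 3.73 in PR and 98.1% ± 2.68 in Control sperm.

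The germ granule genes Mael, which encodes a factor of transposon silencing, and Asz1, which encodes a protein of the mitochondria-bound granules of spermatocytes, also had no listed CpG. Of all 21896 protein-coding genes 57.4% had a listed CpG in the span or 2 kb flanks and 12.6% had one within 1 kb of an end. Among the members these were 5 of 10 and 2 of 10, the ends being those of Sycp1 and Piwil1.

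**Figure D3:**
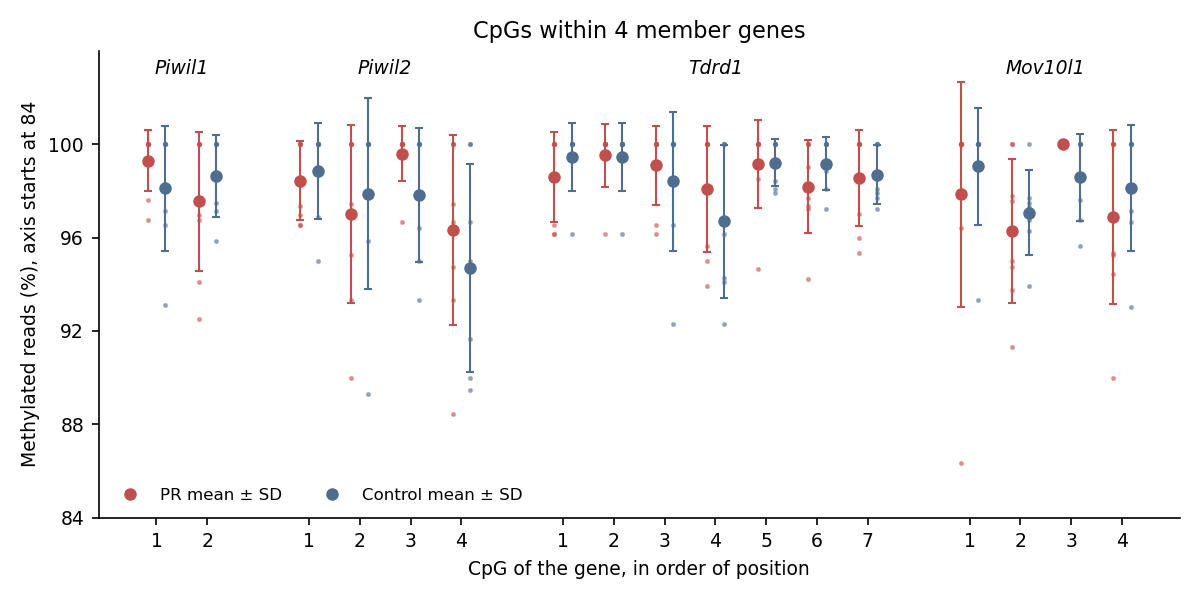
Percentage of methylated reads at the 17 CpGs of Piwil1, Piwil2, Tdrd1 and Mov10l1, with PR left of Control at each CpG. Large points and bars are mean ± SD, small points are libraries, and the axis starts at 84%; the lowest library value is 86.4%, and SD bars can pass 100%, which no value does.

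Outside Sycp1 the 17 CpGs were alike. Each had a mean of at least 90%, as had 183340 of all 204492 listed CpGs. In PR libraries 76 of 4114 reads (1.85%) were unmethylated, against 62 of 3677 (1.69%) in Control libraries. A value of 100% was seen in 60.8% of the 255 combinations of CpG and library, against 49.1% over all listed CpGs. The 17 CpGs leave out Sycp1, which was at 100% in no library, and this raises their share. Neighbouring CpGs shared reads. The first 3 CpGs of Tdrd1 had the same coverage in all 15 libraries, and the second and the third of Piwil2 also in 15, so the CpGs of a gene are not independent measurements.

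Between diets no member passed. Of the 18 CpGs 7 had a higher mean and 11 a lower mean in PR sperm, and 0 passed an adjusted p of 0.05 in the quasi-binomial model fitted on all 204492 CpGs, where 0% passed. At an unadjusted p under 0.05 there were 0 of 18, against 3.79% of all CpGs. The median difference was -0.281 points for the members and 0 for all CpGs, and the members' differences ran from -1.24 to 1.76 points. Of 20801 genes with a listed CpG 0% passed and 3.06% had an unadjusted p under 0.05, and of the 5 members 0 did in either count. The adjusted p of each of the 5 was 1, and the unadjusted p ran from 0.307 at Tdrd1 to 0.980 at Piwil1 in the quasi-binomial model. Taken apart, gene ends (6191 genes) and gene bodies (15083 genes) also had 0% past the adjusted threshold, with 3.33% and 3.11% at an unadjusted p under 0.05. A p that misses the threshold does not show equal levels, and the intervals above bound what these libraries can exclude, widest at Sycp1.

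**Figure D4:**
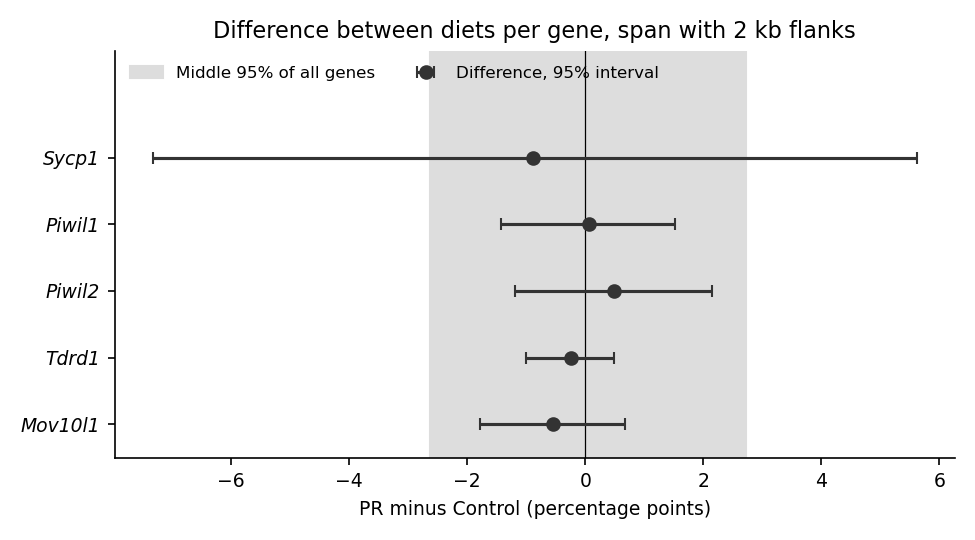
Difference in the percentage of methylated reads, PR minus Control, for the 5 members with listed CpGs, with 95% intervals from the exact permutation test. The grey band holds the middle 95% of differences over 20801 genes, from -2.63 to 2.72 points; all 5 differences lie inside it.

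The other genes of both systems gave the same kind of values, with few exceptions. Of 47 further meiosis genes 31 had listed CpGs, 220 in all. Their median level per gene was 98.2%, against 97.8% over all genes with listed CpGs. Of these 31 genes 30 were at 90% or more. The share over all genes is not given here, and 183340 of all 204492 listed CpGs were at 90% or more. In PR sperm 15 genes had a higher and 16 a lower level, and 0 passed the adjusted threshold. In the quasi-binomial model 8 of 220 CpGs had an unadjusted p under 0.05, against 3.79% of all CpGs. The lowest levels were at Spo11, which makes the DNA breaks that start recombination, with 1 CpG at 86.0% ± 8.77 (SD, n = 8) in PR and 86.8% ± 4.80 (SD, n = 7) in Control sperm, and at Rec114, a partner of that machinery, with 17 CpGs at 90.1% ± 1.94 (SD, n = 8) in PR and 91.1% ± 1.27 (SD, n = 7) in Control sperm. The Spo11 CpG had 21 to 46 reads per library and lies at a gene end that is also inside the span of Gm52538. Stag3, a cohesin subunit of meiosis, was at 92.8% in PR and 93.1% in Control sperm. Its lowest CpG lies outside the gene, inside the span of Gal3st4. Tex14, which keeps germ cells joined by bridges, was at 93.9% in PR and 93.3% in Control sperm.

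Of the 220 CpGs of the meiosis list 3 averaged under 50%, 2 at Rec114 and 1 at Tex14, against 0.982% of all listed CpGs. The lowest CpG of Rec114 averaged 32.6%, 17043 bp into the gene, and that of Tex14 41.5%, 17222 bp into the gene. The smallest p of the list were at Brme1, which acts with BRCA2 in recombination, at 99.2% ± 0.712 in PR and 98.3% ± 0.607 in Control sperm, and at Meiob, which binds single-stranded DNA, at 95.02% ± 0.949 in PR and 93.9% ± 1.71 in Control sperm. Their unadjusted p was 0.0470 and 0.0774 in the quasi-binomial model, and the adjusted p was 1 for both.

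Of 35 further genes listed here under the piRNA pathway, whose part in it was not tested, 34 matched a RefSeq gene. Of these 22 had listed CpGs, 137 in all, with a median level per gene of 97.8%. In PR sperm 12 genes had a higher and 10 a lower level, and 0 passed. In the quasi-binomial model 2 of 137 CpGs had an unadjusted p under 0.05, against 3.79% of all CpGs. Fkbp6, an immunophilin needed for piRNA loading, was the lowest of both lists. Its 2 CpGs, at a gene end, had a lowest value of 57.0%, a median of 68.0% and a highest value of 75.8% in PR libraries, against 66.9%, 69.5% and 78.2% in Control libraries. The ranges overlapped, and the quasi-binomial model gave the difference of -3.57 points an adjusted p of 1 (unadjusted 0.274). The lower of its CpGs averaged 57.0% and lies 187 bp downstream of the 5′ end. Pnldc1, which trims piRNA 3′ ends, was at 90.3% in PR and 88.7% in Control sperm, Tdrd3 at 92.9% in PR and 92.3% in Control sperm, and Tdrd12 at 94.6% in PR and 94.5% in Control sperm. The smallest p were at Tex15, a factor of piRNA-directed methylation, at 98.1% in PR and 96.8% in Control sperm, and at Henmt1, which methylates piRNA ends, at 98.3% in PR and 97.4% in Control sperm, both with an adjusted p of 1 in the quasi-binomial model.

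**Figure D5:**
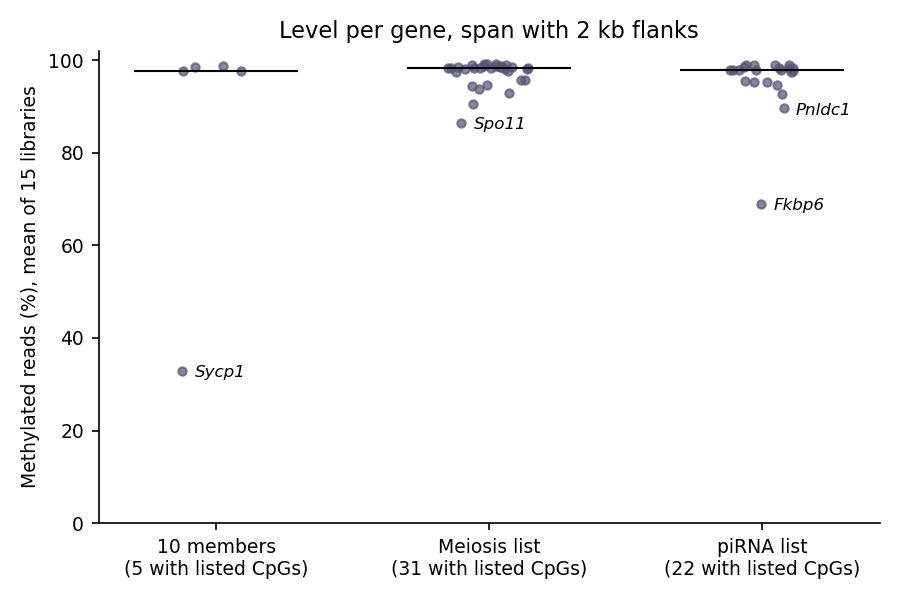
Percentage of methylated reads per gene, summed over the span with 2 kb flanks and averaged over the 15 libraries, for the members, the meiosis list and the piRNA list. Lines are medians and genes under 90% are named; Sycp1 is at 32.9% and Fkbp6 at 68.9%, and the other genes are above 86%.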

How the data were processed

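Methylated and total read counts per CpG were used as deposited by the authors, raw and unnormalized. The submitters' processing notes name Bismark 0.7.12, Bowtie2 2.1.0 and mm10 without their roles; trimming, strand merging and the listing rule were not given in the sources used here. Gene spans and promoter windows came from RefSeq (GRCm38.p6). Percent methylated is methylated over total counts, summed over a region where it holds several CpGs. Rows within 1 kb of a gene end were kept apart from gene-body rows, and no row lay in the outer flank. A quasi-binomial logistic model of diet was fitted (F test, 13 residual degrees of freedom, dispersion of at least 1, Benjamini-Hochberg over all CpGs or all genes at 0.05). It was run on simulated counts that held counting error only, so that run does not cover spread between libraries. Exact two-sided permutation tests of the diet labels were also used (6435 assignments, smallest possible p 0.000155). Intervals at 95% invert the permutation test. The coverage minimum of 10 reads removed no position. Alternatives included limma 3.58.1 on percentages. Python 3.11.15 and scipy 1.17.1 were used. Replicate numbers follow accession order and do not pair libraries. Over the 105 pairs of libraries, chi-square averaged 1.07 to 1.85 per CpG, given as a description only, and every library was kept as a separate sample.

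The members and lists were chosen with earlier results of these data known. All 10 members are named, with every CpG of a member that has up to 5, and otherwise the lowest, the highest and that with the smallest p. From each list the 4 genes with the lowest level and the 2 with the smallest p are named.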

Additional observations from a re-analysis of the deposited data

Results flagged for a closer look

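Over 44 sets of values, 1 per diet for each member gene and CpG, 8 held a library far from the rest. The limit used is Dixon's 95% critical value, which by its construction about 1 set in 20 of normally distributed values passes. That rate does not apply for CpGs near 100%, where 1 or 2 unmethylated reads decide. In 5 of the 8 every other library of the diet was at 100%, so that any lower value stood apart. These were PR replicate 1 at 96.7% at the third CpG of Piwil2 (70423023), Control replicate 7 at 96.2% at the first CpG of Tdrd1 (56828614) and also at 96.2% at the second (56828626), where PR replicate 2 was at 96.2% too, and Control replicate 2 at 93.3% at the first CpG of Mov10l1 (89005234).

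The other 3 had some spread around them. At that Mov10l1 CpG, the value of PR replicate 3 was 86.4%, and the other PR libraries had 96.4% or more. At the fifth CpG of Tdrd1 (56863401), the value of PR replicate 3 was 94.7%, and the other PR libraries had 98.5% or more. At the second CpG of Piwil2 (70422954), the value of Control replicate 6 was 89.3%, and the other Control libraries had 95.8% or more.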

How the results depend on the processing

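With the dispersion not held at 1 or more, 194 CpGs and 1 gene (Aph1c) passed. None of them was a member, and a diet was at 100% in every library at 192 of the 194 CpGs and at Aph1c. Under limma, the coverage minimum of 20 reads, the sum of consecutive title numbers (4 PR and 3 Control runs), no flank (genes only) and each library left out in turn (0 to 0), no CpG and no gene passed; limma had 9320 CpGs and 981 genes at an unadjusted p under 0.05. Mov10l1 and Piwil2 kept their direction under every alternative that gave a value. The Piwil1 difference turned to -0.101 points with title numbers summed, and ran from -0.257 to 0.362 points with a library left out, negative without PR replicate 3 (-0.167), PR replicate 6 (-0.167), Control replicate 4 (-0.0122), Control replicate 6 (-0.257) or Control replicate 7 (-0.148). The Tdrd1 difference was 0.0137 points with equal weight per CpG and from -0.367 to -0.0286 with a library left out. The Sycp1 difference ran from -1.96 to 0.520 points, positive without PR replicate 8 (0.520) or PR replicate 4 (0.289). The cause was not tested. Without a library Piwil2 ran from 0.169 to 0.838 and Mov10l1 from -0.844 to -0.218 points. The minimum of 20 reads left no value for Piwil1, Piwil2 and Tdrd1, and no flank none for Sycp1. No paired analysis was possible because the labels give no replicate numbers. Depth limits single CpGs of 11 to 108 reads per library.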
